A study of Mus musculus with 2 samples.

Results

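The 8 genes described here, Ifitm1, Ifitm2, Ifitm3, Ifitm10, Bst2, Ly6a, Ly6c1 and Ly6e, code for small proteins of the cell surface and endosome membrane. They were taken by name, and all 8 had a row among the 27998 gene names of both count tables. They were chosen by their levels and age ratios in an earlier description of these same libraries, so both are given as a description, with no test. Single cells had been released from the inner surface of the aorta of young C57BL6/J mice (8 weeks) and old C57BL6/J mice (18 months) with trypsin and a fine blade. No genotype or treatment beyond strain and age is named, and whether aortas were pooled is not given in the sources used here. Each age rests on 1 library, made with a droplet method that counts unique molecular identifiers (UMIs) at the 3′ ends of transcripts, so age and preparation cannot be told apart. All 95% intervals below cover counting error only.

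Ifitm proteins sit in the plasma and endosome membranes and block the fusion of incoming viruses with them. Bst2, also called tetherin, holds budding virus particles at the surface. Ly6 proteins carry a three-finger fold and are held in the outer leaflet by a glycosylphosphatidylinositol (GPI) anchor. Ly6a is the progenitor marker Sca-1, Ly6c1 an antigen of endothelium and some leukocytes, and Ly6e a protein that alters the entry of several viruses. Many genes of both families respond to interferon, and blood vessel endothelium is a known site of their expression.

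Cells were assigned to classes from fixed marker genes after clustering without the 8 genes and their relatives. The young library held 1366 barcodes and 12576023 UMIs and the old library 3408 barcodes and 19171045 UMIs, with 11 barcode sequences found in both. Endothelial-like (EC-like) cells numbered 1081 in young and 2387 in old, and all 10 endothelial markers had UMIs in both. Fibroblast-like cells numbered 239 and 572. Macrophage-like (155 cells), lymphocyte-like (123 cells, mixing T, NK and B cell markers) and erythroid-like cells (37 cells) were described in the old library only, since the young one held 13, 10 and 1 of them. Old cells were shallower, with a median of 4995 UMIs against 7396 UMIs for EC-like and 4830 against 8440 UMIs for fibroblast-like cells. UMIs were therefore summed over the cells of a class and scaled to 1000000 UMIs of that class (CPM). Young and old EC-like cells fell into different clusters for the most part, with young cells chiefly in 0 and 1 and old cells chiefly in 2, 3, 4 and 5.

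Among the named classes, taken whole, Ifitm3, Ifitm2, Bst2 and Ifitm10 had their highest level in EC-like cells. A cluster of 56 old cells that stayed unnamed is left out of the orders given here and below. Within fibroblast-like cells, cluster 6 held more Ifitm3 than the EC-like class in old, at 2776 against 2404 CPM. The young values, 1543 CPM on 1109 UMIs in cluster 6 and 1499 CPM in EC-like cells, did not differ beyond counting error. In the old library Ifitm3, which restricts virus entry through endosomes, stood at 2404 CPM in EC-like cells (95% interval 2378 to 2430). It stood at 1731 CPM in macrophage-like cells (1639 to 1827) and 1696 CPM in fibroblast-like cells (1650 to 1743), which did not differ beyond counting error. It was lowest in erythroid-like cells at 539 CPM (433 to 663) and lymphocyte-like cells at 498 CPM (431 to 573). Ifitm2, its close relative, likewise stood highest in endothelium and lowest in the last pair of classes, with 1785 CPM in EC-like, 1123 CPM in macrophage-like, 1096 CPM in fibroblast-like, 432 CPM in lymphocyte-like and 430 CPM in erythroid-like cells. The macrophage-like and fibroblast-like levels of Ifitm2 overlapped, as did the last pair. Haemoglobin genes held 771790 CPM in erythroid-like cells, which leaves less of the total for every other gene. No rank of that class is therefore read as lower expression, here or below.

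Bst2 stood at 407 CPM in old EC-like cells (396 to 418), above macrophage-like cells at 196 CPM (166 to 230) and fibroblast-like cells at 182 CPM (167 to 198). Lymphocyte-like and erythroid-like cells held 112 and 96.9 CPM of Bst2, with overlapping intervals. Ifitm10, a more distant member of its family, was a gene of low level that stood out in endothelium, at 44.5 CPM in old EC-like cells (41.1 to 48.1). It stood at 6.99 CPM in old fibroblast-like cells (4.33 to 10.7) and 10.4 CPM in macrophage-like cells (4.51 to 20.6). Its erythroid-like value of 18.2 CPM rested on 3 UMIs (interval 3.75 to 53.1). Ifitm1, a germ cell and progenitor marker in the mouse, was nearly absent, with 10 UMIs in all young EC-like cells and 19 UMIs in all old ones. In old macrophage-like cells all 5 UMIs of Ifitm1 lay in 1 cell.

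The Ly6 genes divided by class. Ly6a stood highest in fibroblast-like cells, at 3177 CPM (3100 to 3255) for the young and 2920 CPM (2859 to 2982) for the old library. Old EC-like cells held 966 CPM (950 to 982), lymphocyte-like cells 491 CPM (424 to 565), macrophage-like cells 252 CPM (218 to 290) and erythroid-like cells 151 CPM (97.9 to 223), the last pair overlapping. Ly6c1 had the same order, from 1432 CPM in old fibroblast-like cells through 736 CPM in EC-like, 279 CPM in lymphocyte-like and 150 CPM in macrophage-like to 121 CPM in erythroid-like cells. Ly6e had another order: it stood at 1775 CPM in old EC-like and 1395 CPM in lymphocyte-like cells, 983 CPM in macrophage-like cells, and 466 CPM in fibroblast-like cells. Erythroid-like cells held 303 CPM of Ly6e, the lowest level.

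**Figure D1:**
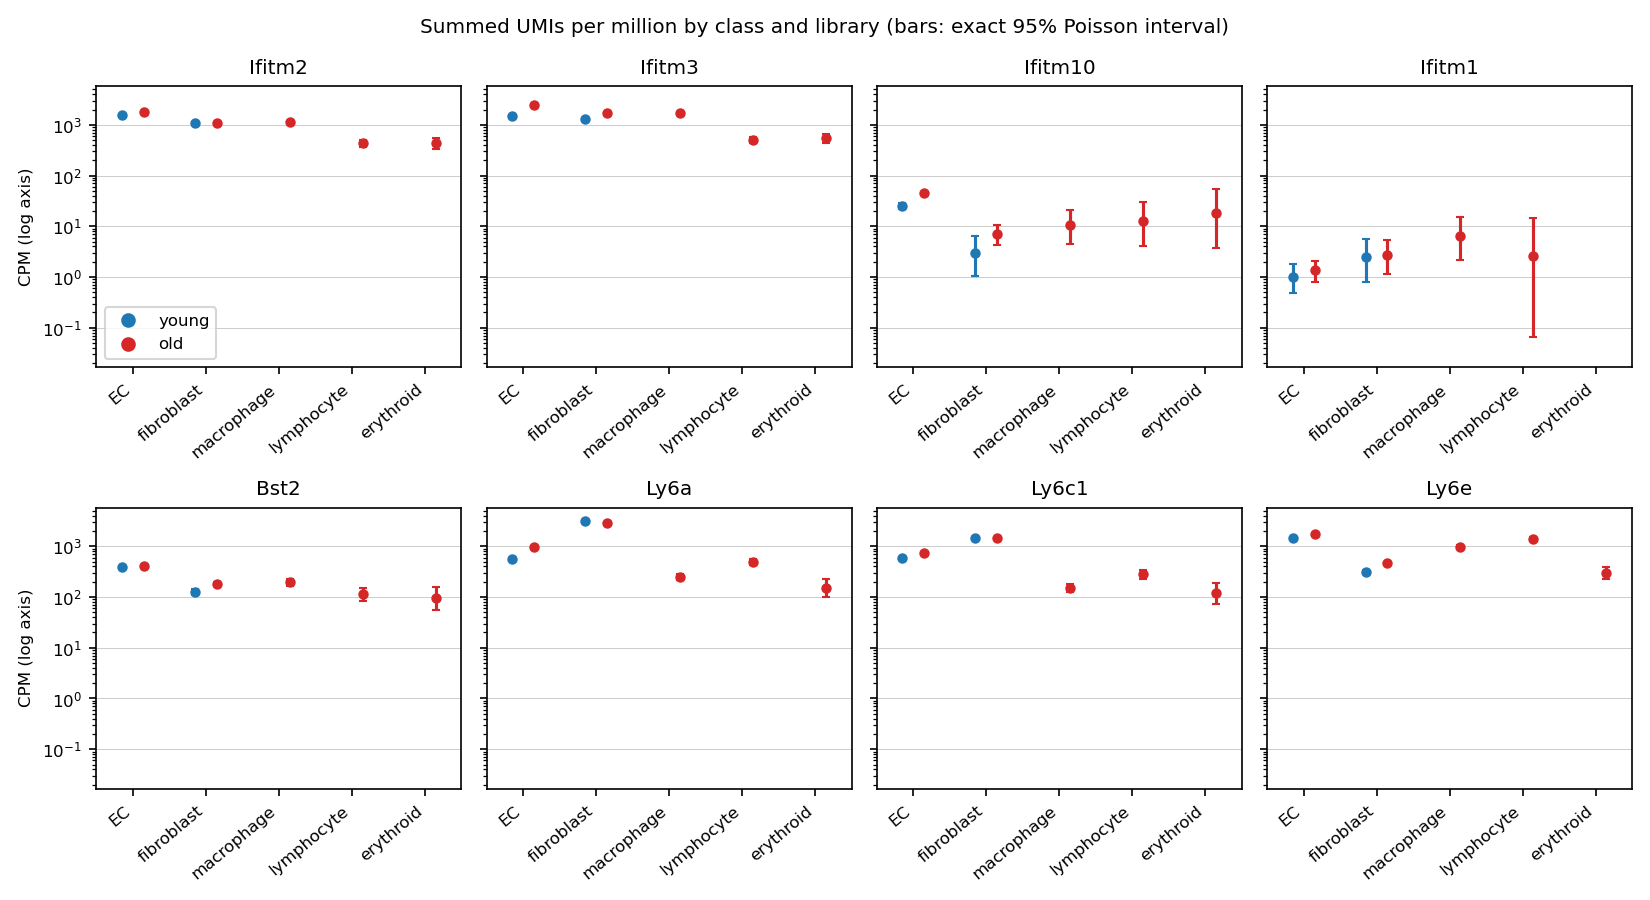
Counts per 1000000 UMIs (CPM, log axis) of each gene in 5 classes, with young in blue, old in red and exact 95% Poisson intervals as bars; classes under 20 cells in a library and levels of 0 are not drawn. Ly6a and Ly6c1 are highest in fibroblast-like cells, while Ifitm2, Ifitm3, Ifitm10, Bst2 and Ly6e are highest in EC-like cells.

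Ifitm1, Ifitm2 and Ifitm3 lie together on mouse chromosome 7, with Ifitm10 apart from them on the same chromosome. The Ly6 genes lie on chromosome 15 (GRCm38, GENCODE vM21). Ifitm2 spans 140954837 to 140955987, Ifitm1 140967221 to 140969825 and Ifitm3 141009586 to 141010770, while Ifitm10 spans 142325837 to 142373753. Ly6e spans 74955051 to 74959905, Ly6a 74994877 to 74998031 and Ly6c1 75044018 to 75048830. Bst2 lies on chromosome 8 at 71534255 to 71537456. Promoter sequence was read from RefSeq (GRCm38.p6), which had 6 of the 8 genes in the table used, without Ly6a and Ly6e. Windows of 250 bases before to 50 bases after each start site were searched on both strands for the interferon-stimulated response element (ISRE), spelled GAAA, any 2 bases, GAAA, and for the STAT element TTCNNNGAA (GAS). An ISRE match was present in 3.44% and a GAS match in 8.30% of all 32851 promoters. Counted by gene, the shares were 3.99% and 9.55% of 27025 genes. The ISRE was found in Ifitm2, Ifitm3 and Bst2, and not in the windows of Ifitm1, Ifitm10 and Ly6c1. The stretches below, 5′ to 3′ on the gene's minus strand, show in capitals the Ifitm2 match, the first of the Ifitm3 matches and both Bst2 matches. For Ly6c1, which had no match, the 150 bases before 1 of its start sites are shown beside the 150 bases before that of Bst2.
Ifitm2 (chr7:140955988-140956017): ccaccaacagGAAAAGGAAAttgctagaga
Ifitm3 (chr7:141010723-141010752): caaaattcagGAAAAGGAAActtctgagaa
Bst2 (chr8:71537473-71537622): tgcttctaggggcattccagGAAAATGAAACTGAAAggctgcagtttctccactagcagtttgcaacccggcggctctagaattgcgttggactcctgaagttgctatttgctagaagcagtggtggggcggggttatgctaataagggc
Ly6c1 (chr15:75048838-75048987): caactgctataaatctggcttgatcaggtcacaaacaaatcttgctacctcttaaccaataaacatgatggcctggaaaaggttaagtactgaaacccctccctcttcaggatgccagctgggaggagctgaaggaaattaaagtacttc
The Ifitm2 match began 46 bases before the start site, and the same GAAAAGGAAA began at base 3 of the transcript in Ifitm3, which held another match, GAAACCGAAA, at base 20. The capitals in Bst2 are 2 overlapping matches that began 130 and 124 bases before the start site. A GAS match overlapped an ISRE match in Ifitm3 (TTCTGAGAA, from base 14) and in Bst2 (TTCCAGGAA, from 136 bases before the start). A match is a run of letters and not a measured binding site.

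The first comparison by age asked how these genes differed in the endothelium of the old aorta. All 8 genes had a higher level in old than in young EC-like cells, and 3 of them, Ly6a, Ifitm10 and Ifitm3, were past 1.5-fold. Over the 10023 genes with at least 100 UMIs in the class, 5.19% were past 1.5-fold upward and 59.0% were higher in old. As log2 of old over young, the 8 genes had a median ratio of 0.38 and all tested genes one of 0.06. Since the 8 genes were chosen with these values known, nothing is read from the difference.

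The level of Ly6a was 555 CPM (540 to 570) in the young library and 966 CPM in the old one, which is 0.80 on the log2 scale (95% interval 0.75 to 0.84). For Ifitm3 the young level was 1499 CPM (1475 to 1523) and the old level 2404 CPM, or 0.68 as log2 (0.65 to 0.71). Ifitm10 went from 25.2 CPM (22.2 to 28.5) to 44.5 CPM, or 0.82 as log2 (0.61 to 1.04). The counting intervals of the 2 libraries were apart for each of these genes.

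The other genes of both families had smaller ratios. Ly6c1 went from 591 to 736 CPM (log2 ratio 0.32, 0.27 to 0.36). Ly6e went from 1451 to 1775 CPM (0.29, 0.26 to 0.32). Ifitm2 stood at 1531 and 1785 CPM (0.22, 0.19 to 0.25), so its ratio was below that of Ifitm3 with intervals apart. Bst2 was nearly level at 385 and 407 CPM (0.08, 0.02 to 0.14), and its interval held 0 when libraries were scaled by the median gene (0.02, -0.04 to 0.07). Ifitm1 was too rare to rank (0.44, -0.74 to 1.70).

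Some counts are uncertain, since related genes share sequence near the 3′ ends that were read. Of the 50-base words in the last 500 bases of transcripts, 41.9% were shared with other genes for Ifitm2, 29.2% for Ly6c1 (mostly with Ly6c2), 14.0% for Ifitm3, 11.8% for Ifitm1, 8.13% for Ly6a and 7.31% for Ifitm10. Bst2 and Ly6e shared none.

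In fibroblast-like cells the pattern was another one. Ly6a was slightly lower in the old library, 2920 against 3177 CPM (log2 -0.12, interval -0.17 to -0.08). With scaling by the median gene this became -0.035 (-0.08 to 0.01), an interval that held 0. Ly6c1 stood at 1465 and 1432 CPM (-0.03, -0.10 to 0.03), a ratio that turned to 0.05 (-0.01 to 0.12) with the same scaling. Ly6e and Bst2, which stood lower in this class than in endothelium, had the larger ratios here. Ly6e went from 316 CPM (292 to 341) to 466 CPM (442 to 491), which is 0.56 as log2 (0.43 to 0.70). Bst2 went from 126 CPM (111 to 142) to 182 CPM, or 0.53 (0.32 to 0.75). The 10 endothelial markers also differed, summing to 446 CPM in young and 925 CPM in old fibroblast-like cells. Under 13 alternatives, among them cells with no UMI of Pecam1 or Lyz2, Ly6e lay between 0.41 and 0.67 and Bst2 between 0.30 and 0.65. The part of endothelial RNA in the ratios of this class was not tested.

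Among the Ifitm genes of fibroblast-like cells, Ifitm3 stood at 1276 and 1696 CPM (0.41, 0.34 to 0.48) and Ifitm2 at 1063 and 1096 CPM (0.04, -0.03 to 0.12). Ifitm10 had 6 and 21 UMIs (1.26, -0.10 to 2.86). Of the 7 genes with at least 20 UMIs, 5 were higher and 2 lower in old, and 1, Ifitm10, was past 1.5-fold upward. Among the 5606 genes with at least 100 UMIs, a minimum that Ifitm10 did not reach, 4.53% were past it upward. The 7 genes had a median of 0.41, beside -0.09 over all these tested genes, of which 40.3% were higher. Over the 6 genes that kept 20 UMIs, the median lay between 0.18 and 0.22 within bands of cell depth and in cells with no UMI of Pecam1 or Lyz2. With all cells thinned to equal depth it was 0.13. Ifitm10, the highest of the 7 ratios, was not among these 6 genes, so their medians cannot be compared with 0.41. Ifitm1 had 5 and 8 UMIs in the class.

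**Figure D2:**
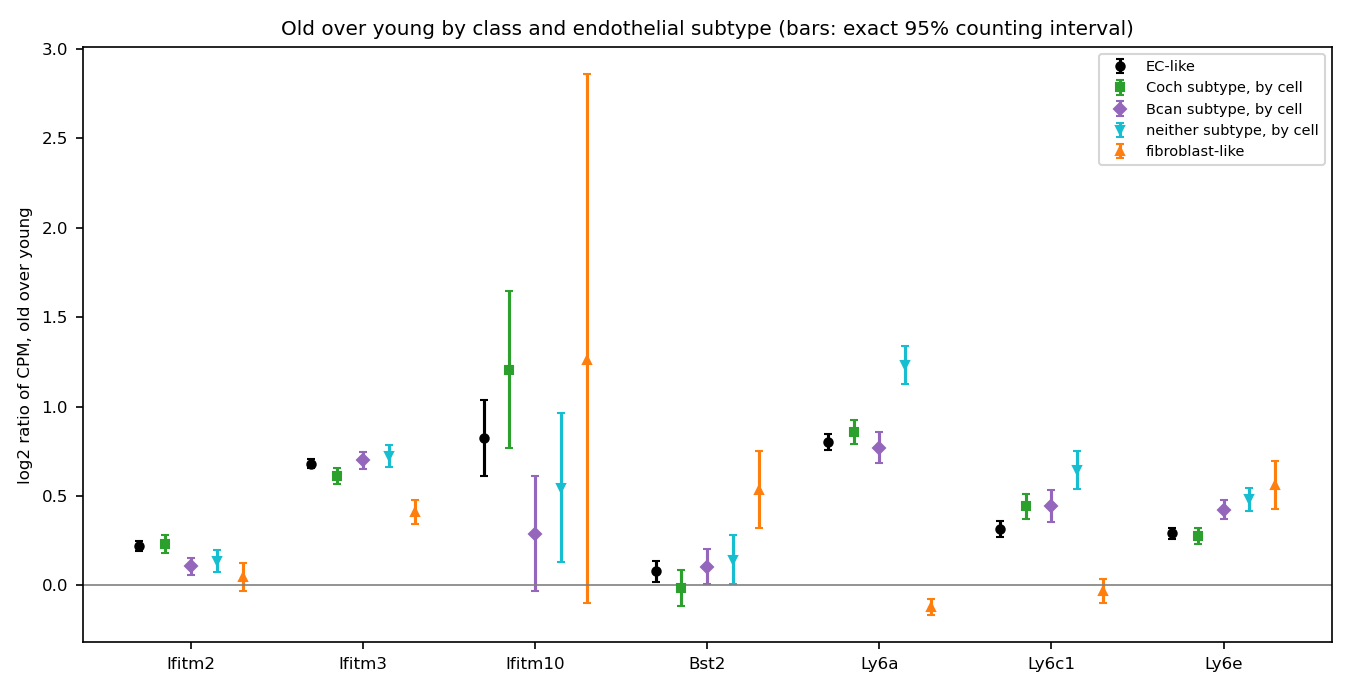
Log2 ratio of CPM, old over young, for 7 genes in EC-like cells, in 3 endothelial groups assigned cell by cell, and in fibroblast-like cells; bars are exact 95% counting intervals and 0 means equal levels. Ly6a lies between 0.77 and 1.23 in the endothelial groups and at -0.12 in fibroblast-like cells, while Ifitm3 is above 0 in every group.

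Both fibroblast clusters were compared apart. Cluster 6 (102 young and 61 old cells) had log2 ratios of 0.85 for Ifitm3 (0.70 to 1.00), 0.87 for Ly6e (0.52 to 1.21) and 1.19 for Bst2 (0.57 to 1.79). Cluster 7 (137 and 511 cells) had 0.52 for Ifitm3 (0.43 to 0.60), 0.50 for Ly6e (0.34 to 0.66) and 0.30 for Bst2 (0.06 to 0.55). These 3 genes were higher in old in each cluster, and Ifitm2 was too, at 0.21 (0.02 to 0.41) and 0.18 (0.08 to 0.27), above its ratio over the whole class. Ly6a stood at 0.05 (-0.09 to 0.18) in cluster 6 and -0.19 (-0.24 to -0.13) in cluster 7.

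Aortic endothelium held 2 subtypes, marked by Coch, Sost and Adra2a or by Bcan, Isl1 and Frzb. Each EC-like cell was given to the subtype with more of its 3 markers seen, or to neither. The Coch subtype then held 501 young and 544 old cells and the Bcan subtype 321 and 1195. Ly6c1 leaned to the Coch subtype in both libraries, with 696 CPM against 454 CPM in young and 945 CPM against 617 CPM in old. The log2 ratio of Coch over Bcan for Ly6c1 was 0.62 in young (0.52 to 0.71) and 0.61 in old (0.55 to 0.68), past 1.5-fold as were 6.46% and 4.66% of all genes tested in those libraries. Ly6a leaned the same way, at 0.35 in young (0.26 to 0.45) and 0.44 in old (0.38 to 0.50), and so did Ly6e, at 0.38 (0.32 to 0.44) and 0.23 (0.19 to 0.28).

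The Ifitm genes leaned to the Bcan subtype or to neither. Ifitm10 stood at 14.4 CPM in Coch and 37.9 CPM in Bcan cells of the young library, a log2 ratio of -1.40 (-1.84 to -0.96). In the old library it stood at 33.2 and 46.2 CPM (-0.48, -0.80 to -0.17). Ifitm2 had ratios of -0.30 in young (-0.35 to -0.24) and -0.17 in old (-0.22 to -0.13). Ifitm3 stood at 0.00 (-0.05 to 0.06) and -0.09 (-0.13 to -0.05), and Bst2 at 0.00 (-0.11 to 0.10) and -0.12 (-0.22 to -0.03).

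Subtypes taken by whole clusters gave 459 young and 462 old Coch cells but only 51 young Bcan cells beside 1899 old ones, since 571 young cells lay in cluster 0, which met neither definition. Cluster 0 leaned to Bcan, with its markers seen in a mean of 37.9% of cells against 20.8% for the Coch markers. This fell short of the 2-fold margin that the rule asked for. Of the 51 young Bcan cells, 32 lay in cluster 4. In the old library the cluster rule gave 0.57 for Ly6c1 (0.51 to 0.63), 0.31 for Ly6a (0.25 to 0.37) and -0.82 for Ifitm10 (-1.18 to -0.48), where 7.31% of all genes were past 1.5-fold in either direction. In the young library, on 51 Bcan cells, Ly6c1 stood at 0.20 (-0.04 to 0.44) and Ly6a was reversed at -0.37 (-0.58 to -0.16), where 25.2% of all genes were past 1.5-fold.

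The age ratio was also taken within each subtype, since the mix of subtypes differed between the libraries. By the rule applied to each cell, Ly6a had log2 ratios of 0.86 in Coch (0.79 to 0.93), 0.77 in Bcan (0.69 to 0.86) and 1.23 in neither (1.13 to 1.34). Ifitm3 had 0.61 (0.56 to 0.66), 0.70 (0.65 to 0.75) and 0.72 (0.66 to 0.78), the most even of the genes past 1.5-fold in the whole class. For Ly6c1 the ratios were 0.44, 0.44 and 0.64, and for Ly6e 0.28, 0.42 and 0.48. In all, 3 of 7 genes were past 1.5-fold upward in Coch, 2 in Bcan and 3 in neither, where 4.39%, 5.52% and 4.78% of all tested genes were.

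Ifitm10 depended on how cells were given to subtypes. Its age ratio by the rule for each cell was 1.20 in Coch (0.77 to 1.64), 0.29 in Bcan (-0.03 to 0.61) and 0.54 in neither (0.13 to 0.96). By whole clusters it was 1.40 in Coch (0.88 to 1.92), 1.53 in Bcan (0.16 to 3.41, on 4 young UMIs) and 0.70 in neither (-0.54 to 1.70). Bst2 stood at -0.01 in Coch (-0.12 to 0.09), 0.10 in Bcan and 0.14 in neither. Within single clusters that held at least 20 cells of each library, Ifitm3 stood at 0.66 (0.48 to 0.83) in cluster 0, 0.41 (0.27 to 0.55) in cluster 2 and 0.45 (0.26 to 0.65) in cluster 4. Ly6a stood at 0.56 (0.22 to 0.89) and 0.47 (0.14 to 0.81) in clusters 0 and 4. In cluster 2, of Coch type, it stood at -0.09 (-0.26 to 0.08), on 54 young cells with a median of 3599.5 UMIs. Bst2 was lower in old in clusters 2 and 4, at -0.38 (-0.65 to -0.11) and -0.43 (-0.81 to -0.04), and in the Coch subtype taken by clusters, at -0.15 (-0.25 to -0.04). In the Bcan subtype taken by clusters, with 51 young cells, Ly6a stood at 0.14 (-0.06 to 0.35) and Ifitm3 at 0.45 (0.31 to 0.59). So the higher level of Ifitm3 in old was present in every one of these groups, and that of Ly6a was not.

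To see how many cells carried each RNA, every cell was thinned to 3100 UMIs, which kept 980 young and 1827 old EC-like cells. The share with a UMI of Ly6a was 58.8% in young (55.6 to 61.9%) and 84.1% in old (82.4 to 85.8%), against 76.5% and 89.3% before thinning. Ly6c1 was seen in 69.9% (66.9 to 72.8%) and 80.4% (78.5 to 82.2%), and Ifitm10 in 7.45% (5.88 to 9.28%) and 13.1% (11.6 to 14.8%). Before thinning Ly6c1 was seen in 84.5% and 86.8% and Ifitm10 in 16.8% and 19.9% of these cells. Ifitm2, Ifitm3 and Ly6e were in at least 96.4% of EC-like cells of both libraries. Bst2 was in 68.4% (65.4 to 71.3%) and 69.2% (67.1 to 71.4%).

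Of 222 young and 469 old fibroblast-like cells at that depth, Ly6a was in 99.5% and 100%, and Ly6c1 in 95.5% and 96.8%. Ly6e was in 55.4% (48.6 to 62.1%) and 72.3% (68.0 to 76.3%), and in 83.3% and 82.2% before thinning. For background, the 25 erythroid-like cells deep enough showed a UMI of Ifitm3 in 64.0% (42.5 to 82.0%), of Ly6e in 44.0% (24.4 to 65.1%) and of Ly6a in 36.0% (18.0 to 57.5%). All 37 erythroid-like cells together had a median of 4152 UMIs. Haemoglobin genes held 771790 CPM of them, so at equal depth they had fewer UMIs of other genes than the other classes. The young library had no such class to compare. In old lymphocyte-like cells the shares of 41.9% for Ifitm3 (24.5 to 60.9%) and 25.8% for Bst2 (11.9 to 44.6%) lay at or below those of erythroid-like cells, so neither share is read as expression.

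**Figure D3:**
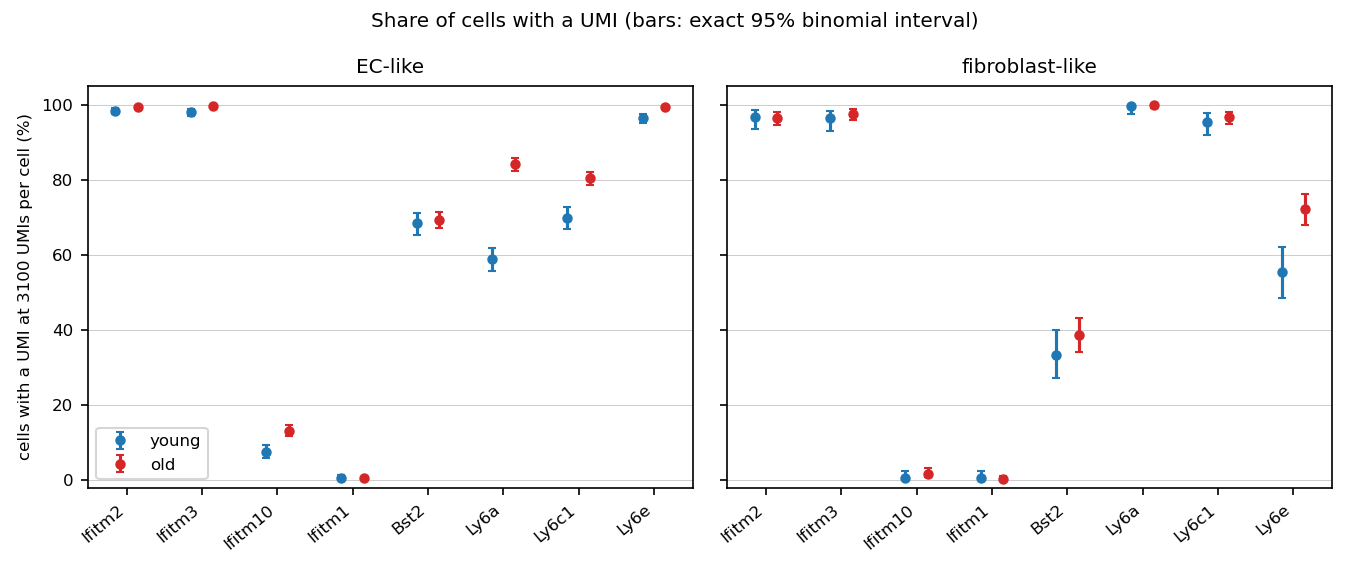
Share of cells with at least 1 UMI of each gene (%) after thinning every cell to 3100 UMIs, for EC-like and fibroblast-like cells, young in blue and old in red; bars are exact 95% binomial intervals. In EC-like cells Ly6a is at 58.8% in young and 84.1% in old and Ly6c1 at 69.9% and 80.4%, while Bst2 is at 68.4% and 69.2%.

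The distribution over cells differed between the genes. In EC-like cells Ifitm3 was spread more evenly than Ly6a, with a Fano factor (variance over mean) of 1.70 in young and 1.69 in old. Ifitm2 (1.20 and 1.20) and Bst2 (1.24 and 1.19) had lower Fano factors than Ifitm3. The factor depends on the mean, which was 1.19 and 1.25 UMIs for Bst2 against 4.48 and 7.43 UMIs for Ifitm3. Bst2 is therefore not ranked against Ifitm3 by evenness. The median of Ifitm3 at equal depth was 4 UMIs for young and 7 UMIs for old cells, and cells with 10 or more UMIs went from 4.49% to 23.6%. Ly6a was uneven, with a Fano factor of 4.28 in both libraries, a median of 1 UMI in young and 2 UMIs in old, and cells at 0 UMIs at 41.2% and 15.9%. Cells with 10 or more UMIs of Ly6a were few in both, 23 (2.35%) in young and 72 (3.94%) in old. In the old library 43 of those 72 cells belonged to cluster 3, where they made up 7.50% and the highest cell had 62 UMIs.

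Ly6c1 lay between these, with Fano factors of 2.44 and 2.26 and medians of 1 and 2 UMIs. Ly6e moved from a median of 4 to 5 UMIs while its Fano factor went from 1.93 to 1.43. In fibroblast-like cells the median of Ly6a was 9 UMIs in young and 8 UMIs in old, and 47.3% and 38.4% of cells had 10 or more. Ly6a and Ly6c1 were seen together in 46.1% of young EC-like cells, where the product of their shares was 41.1%, and in 70.4% of old ones, where it was 67.6%. The median cell carried UMIs of 5 of the 8 genes in young and 6 in old.

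**Figure D4:**
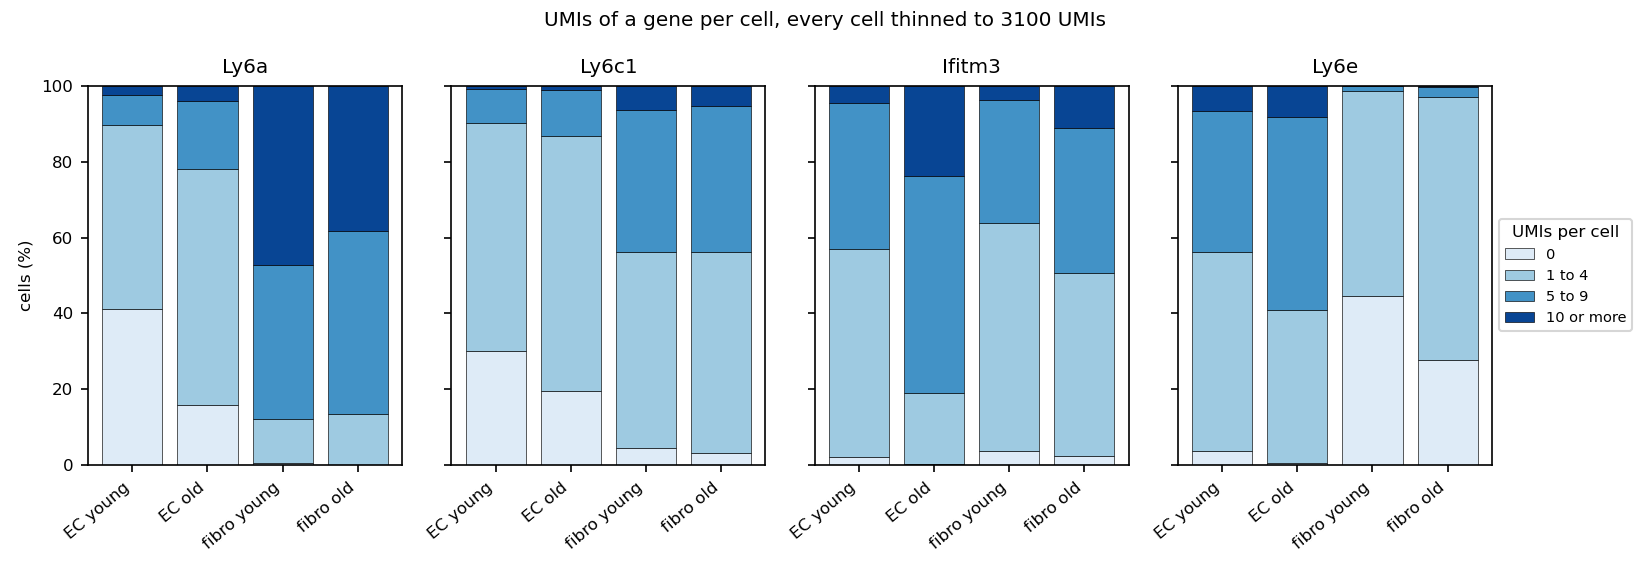
Share of cells (%) with 0, 1 to 4, 5 to 9 and 10 or more UMIs of Ly6a, Ly6c1, Ifitm3 and Ly6e, with every cell thinned to 3100 UMIs, for EC-like and fibroblast-like (fibro) cells of each library. For Ly6a the EC-like share at 0 is 41.2% in young and 15.9% in old, and for Ifitm3 the share with 10 or more is 4.49% and 23.6%.

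RNA of other classes in EC-like cells also differed between the libraries. The 8 macrophage markers summed to 8.95 CPM in young EC-like cells, where 5 had UMIs and Csf1r, Adgre1 and Fcgr1 were at 0, and to 102 CPM in old ones, where all 8 had UMIs. In fibroblast-like cells these markers summed to 11.7 and 134 CPM. Haemoglobin genes together held 25.3 and 603 CPM of EC-like cells, and the fibroblast gene Dcn 118 and 229 CPM, while the 8 fibroblast markers summed to 458 and 421 CPM. Ly6a stood at 0.435 UMIs per Dcn UMI in old fibroblast-like cells and 4.22 in old EC-like cells (0.330 and 4.71 in young). For Ifitm3 there were 0.225 UMIs per Lyz2 UMI in old macrophage-like cells and 56.0 in old EC-like cells. In the 518 young and 969 old EC-like cells without a UMI of Dcn or Lyz2, the age ratio was 0.95 for Ly6a (0.88 to 1.03), 0.73 for Ifitm3 (0.68 to 0.77) and 1.18 for Ifitm10 (0.83 to 1.55). In all EC-like cells these ratios were 0.80, 0.68 and 0.82. The subset was not matched to the whole class in depth. The part of RNA of other classes in these ratios, haemoglobin RNA included, was not tested. With haemoglobin and mitochondrial genes both left out of the totals, the median ratio of the 8 genes was 0.39.

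Levels in erythroid-like, macrophage-like and lymphocyte-like cells were set against Pecam1 in the same cells. Whether the Pecam1 UMIs of these classes came from endothelium was not tested. In old erythroid-like cells the UMIs of each gene per UMI of the endothelial gene Pecam1 had intervals that held the EC-like ratio for all 8 genes (Ifitm1 at 0 UMIs), such as 0.788 (0.590 to 1.05) beside 0.690 in EC-like cells for Ifitm3 and 0.221 (0.137 to 0.344) beside 0.277 for Ly6a. Macrophage-like cells held more, with 2.86 (2.57 to 3.19) for Ifitm3, 1.86 (1.66 to 2.08) for Ifitm2 and 1.63 (1.45 to 1.83) for Ly6e beside 0.690, 0.512 and 0.509 in EC-like cells. Their Ly6c1 stood at 0.248 (0.201 to 0.305) beside 0.211, so that its interval held the EC-like ratio. Lymphocyte-like cells held 2.84 (2.41 to 3.37) for Ly6e and 1.00 (0.814 to 1.23) for Ly6a. Their ratios of 1.02 (0.828 to 1.25) for Ifitm3 and 0.229 (0.161 to 0.319) for Bst2 also lay above the EC-like values of 0.690 and 0.117. All 8 fibroblast markers had UMIs in these cells, at 1492 CPM in sum, and their part in these ratios was not tested.

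**Figure D5:**
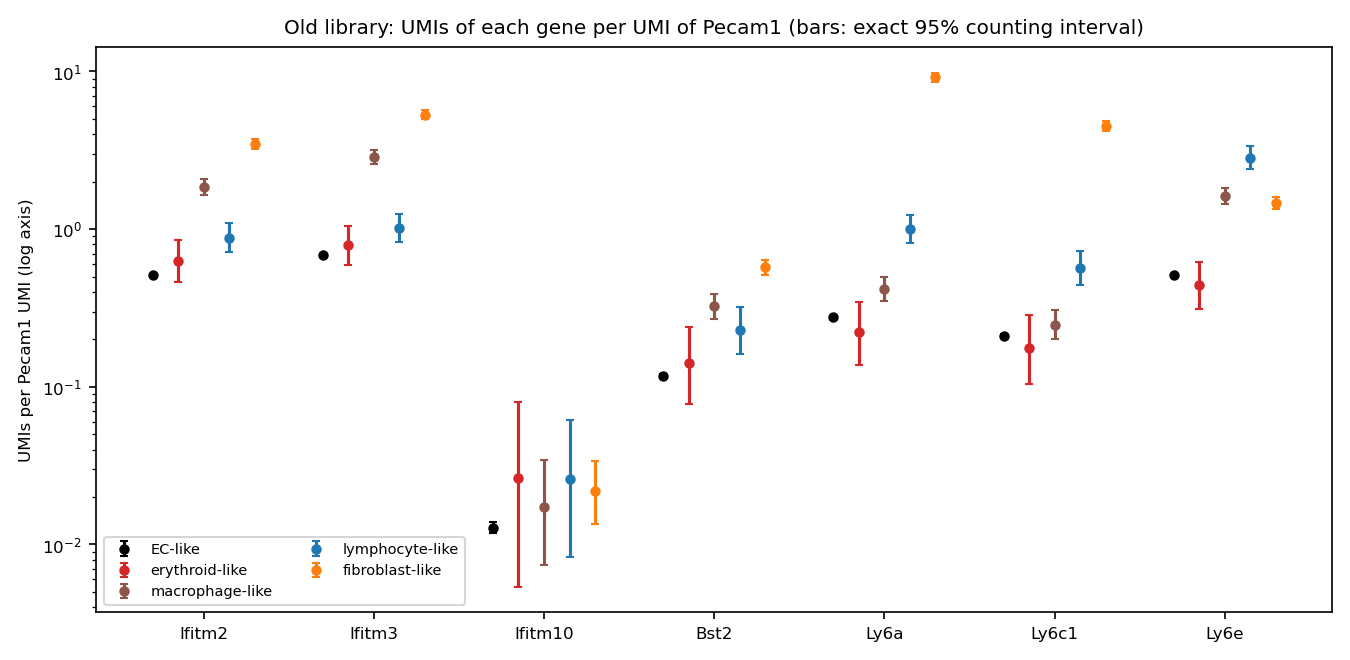
UMIs of each gene per UMI of Pecam1 (log axis) in 5 classes of the old library, with exact 95% counting intervals. Erythroid-like values (red) lie close to the EC-like values (black), while macrophage-like Ifitm3 (2.86) and lymphocyte-like Ly6e (2.84) lie above them.

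The wider families and pathways were described with lists. Of 7 Ifitm family genes in the files, 3 had at least 100 UMIs in EC-like cells, all among the genes above. Of 30 Ly6 and uPAR family genes, 7 were measured there, 4 higher and 3 lower in old, with a median log2 ratio of 0.23. Ly6a and Ly6c1 were the highest. The lowest were Cd59a, which blocks the complement membrane attack complex, at 100.2 CPM (94.1 to 107) and 55.1 CPM (51.3 to 59.1), -0.86 as log2, and Plaur, the urokinase receptor, at 18.9 and 14.7 CPM (-0.36, -0.65 to -0.07).

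Type I interferon-stimulated genes as a list had a median close to that of all genes in EC-like cells and above it in fibroblast-like cells. Of 31 in the files 26 were measured in EC-like cells, 16 higher and 10 lower in old, with a median of 0.07 beside 0.06 over all genes. The nucleic acid sensor Zbp1 (40 and 116 UMIs) stood at 1.05 (0.52 to 1.60) and Ifi44 at 0.63 (0.23 to 1.05), while the RNA sensor Oas1a stood at -0.85 (-1.32 to -0.38) and the transcription factor Stat2 at -0.29 (-0.56 to -0.01). In fibroblast-like cells 13 were measured, 10 higher and 3 lower, with a median of 0.26 beside -0.09 over all genes, of which 40.3% were higher. Past 1.5-fold upward were 6 of the 13, where 4.53% of all tested genes were.

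Interferon receptors and signalling genes had a median of -0.11 in EC-like cells, with 4 of 12 measured genes higher and 8 lower in old. The kinases Jak1 at 0.28 (0.14 to 0.42) and Tyk2 at 0.13 (-0.18 to 0.45) were the highest. The feedback inhibitor Socs3 stood at -1.36 (-1.64 to -1.08), and Ifnar2, a chain of the type I interferon receptor, at -0.56 (-0.72 to -0.40). Fibroblast-like cells had 6 of 9 higher, with a median of 0.09.

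Genes that make the GPI anchor, which Ly6 proteins and Bst2 carry, had a median of 0.02 in EC-like cells, with 13 of 23 higher. Pgap1 stood at 0.45 (-0.13 to 1.06) and Pigu, a subunit of the transamidase that attaches the anchor, at 0.40 (0.11 to 0.70). Pigg stood at -0.61 (-0.92 to -0.29) and the mannose donor synthase Dpm1 at -0.52 (-0.68 to -0.36). In fibroblast-like cells 2 of 12 were higher, with a median of -0.11. Among known partners of Ifitm3, the palmitoyltransferase Zdhhc20 stood at 0.24 (0.10 to 0.39), the protease Zmpste24 at 0.27 (0.10 to 0.43) and the ubiquitin ligase Nedd4 at -0.08 (-0.15 to -0.02) in EC-like cells.

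Likeness was taken as Pearson's r of log2(CPM + 10) over 13 groups (class by library and subtype by library), which overlap in their cells, among 10873 genes. Ly6a and Ly6c1 were alike at 0.93 and Ifitm2 and Ifitm3 at 0.94, while Ly6a and Ly6e stood at -0.10. The genes most like Ly6e were Psmb9 (0.98), Psme1 (0.98) and Lrrfip1 (0.97), and those most like Bst2 were Scarf1 (0.98), Tbkbp1 (0.98) and Gbp5 (0.98). Ly6a was most like Adamtsl5 (0.97), Aebp1 (0.97) and Cdc14b (0.96), and Ly6c1 most like Clip3 (0.97), Prkcdbp (0.96) and Selm (0.96). For Ifitm2 these were Tmbim1 (0.99), Zxdb (0.98) and Atp6ap1 (0.98), for Ifitm3 Gm20342 (0.96), Rbbp5 (0.96) and Prkd3 (0.94), and for Ifitm10 Mal (0.96), Adra2c (0.94) and Angpt1 (0.92). These values share libraries and cells and carry no test.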

How the data were processed

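For each library the authors deposited raw UMI counts, with genes in rows and barcodes in columns. Per the submitters' processing notes Cell Ranger and GRCm38 were used, with version and annotation not given in the sources used here. Members, lists and markers were chosen with earlier results of these data known.

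Cells needed 200 genes and no more than 10% mitochondrial UMIs, which removed 1 young and 72 old barcodes. Scrublet marked 6 barcodes of each library (0.440% and 0.180%), too few to count as working, and these were dropped. The 1359 young and 3330 old cells left were clustered (scanpy 1.11.5, 2000 variable genes, 30 components, 15 neighbours, Leiden resolution 0.5) without the members and their families. A cluster was named from at least 3 markers seen in 25% of its cells, and 1 cluster of 15 young and 56 old cells with smooth muscle and endothelial genes stayed unnamed.

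Ratios of summed counts carry an exact conditional binomial 95% interval, levels an exact Poisson interval and shares an exact Clopper-Pearson interval. No test between the ages was possible on 1 library each. Members needed 20 UMIs and other genes 100 UMIs over both libraries. All members are named, with the 2 highest and 2 lowest genes of each list in EC-like cells and the 3 genes most like each member. The interval code was tested on simulated counts. Other cell filters, class and subtype rules, scalings, weightings, thinning depths and UMI minimums were tried. The software was Python 3.11.15 with scipy 1.17.1, numpy 2.4.6, igraph 0.11.9 and pandas 2.3.3.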

Additional observations from a re-analysis of the deposited data

Results flagged for a closer look

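The age ratios of Ly6a had opposite signs in the 2 main classes of the vessel wall. Its log2 ratio of old over young was 0.80 in EC-like cells and -0.12 in fibroblast-like cells. With 1 library per age the difference between the classes was not tested. The fibroblast-like value was small: it became -0.035 (-0.08 to 0.01) with scaling by the median gene, and it was 0.05 (-0.09 to 0.18) in cluster 6 and 0.11 (-0.02 to 0.25) in cells of 2000 to 5000 UMIs.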

How the results depend on the processing

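In EC-like cells every gene of the 8 stayed higher in old under each of the 13 alternatives that gave it a value (8 for Ifitm1). Ly6a (0.62 to 1.05) and Ifitm3 (0.62 to 0.78) stayed past 1.5-fold in 13 of 13 and Ifitm10 (0.38 to 1.18) in 12 of 13. The median of 0.38 became 0.55 in cells without a UMI of Dcn or Lyz2 and 0.26 in cells of over 10000 UMIs, both chosen after seeing the data. The cause was not tested. The fibroblast-like median of 0.41 became 0.50 with scaling by the median gene, which raises every ratio by 0.09 there and lowers every EC-like ratio by 0.06. Ly6a in fibroblast-like cells turned to 0.11 in cells of 2000 to 5000 UMIs, also chosen after seeing the data (interval -0.02 to 0.25). The median of Coch over Bcan in the young library moved from -0.23 to -0.43 with the members kept in clustering, and to 0.0019 with subtypes and 0.014 with classes assigned cell by cell, so that the median lay near 0. In the old library it moved from -0.16 to -0.067 with classes and -0.086 with subtypes assigned so. A stricter cell filter left under 20 young Bcan cells and gave no value. No paired analysis was possible because each age has 1 library. Ifitm1 in all classes, and Ifitm10 outside endothelium, were limited by few UMIs.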

Other observations

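Relatives outside the list were seen in other classes, and were chosen here after their values were seen. Ly6c2, the neighbour of Ly6c1, stood at 225 CPM and Ly6d, a B lymphocyte marker, at 404 CPM in old lymphocyte-like cells. Ifitm6 stood at 75.7 CPM in old macrophage-like cells and had 1 young and 3 old UMIs in EC-like cells. Ly6c2 was lower in old in both main classes, with 67 and 32 UMIs in EC-like cells (log2 ratio -1.56, -2.21 to -0.93) and 40 and 12 UMIs in fibroblast-like cells (-2.28, -3.35 to -1.32), although it shared 34.6% of its 3′ words, nearly all with Ly6c1.

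The unnamed cluster that carried both smooth muscle and endothelial genes held 2209 CPM of Ly6a in the old library. Its first gene by fold was Ccl21a, a chemokine of lymphatic endothelium, and markers of lymphatic endothelium summed to 625 CPM and those of platelets to 673 CPM there, against 26.6 and 20.1 CPM in old EC-like cells. Their part in the Ly6a level was not tested. At equal depth 27.1% of its 48 old cells had 0 UMIs and 27.1% had 10 or more UMIs of Ly6a, and its Fano factor was 8.65.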
